A study of Mus musculus with 34 samples.

Results

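The mitochondrially encoded genes are the genes of the mouse mitochondrial chromosome, taken here as every row of the bulk RNA-seq table whose GENCODE symbol begins with mt-. They numbered 37 of the 54532 genes in the table, made up of 13 mRNA genes, 2 rRNA genes and 22 tRNA genes. Libraries came from dorsal hippocampi of C57BL/6J males, in 2 groups of 4, with 1 library per mouse as the study describes it. Homecage (HC) mice stayed in their cage, and SOR mice were euthanized 1 h after training in spatial object recognition, a task in which mice learn where objects stand in an arena. Mice of both groups were adults, 2 to 3 months old per the methods, and no transgene or drug was named for either group. The comparison asks which RNAs differed shortly after learning. The series holds 34 samples, and its other assays were not analysed here.

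The mitochondrial genome encodes core subunits of the respiratory chain and of the ATP synthase, together with the rRNAs and tRNAs of the mitochondrion's own ribosomes. Both of its strands are transcribed into long precursors, from which the tRNAs that lie between most of the genes are cut out, releasing the mRNAs and rRNAs. Neurons draw much of the ATP for ion pumping and synaptic transmission from this system. The complexes are of mixed origin, since most of their subunits come from nuclear genes.

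The gene order is shown by 3 stretches of the mitochondrial chromosome (chrM, GRCm38, RefSeq sequence, plus strand). The first, chrM:2646-2780, runs from the end of the large rRNA gene mt-Rnr2 through the leucine tRNA gene mt-Tl1, in capitals, into mt-Nd1, with no base between the genes. The second, chrM:7907-7989, holds in capitals the 43 bases (7927 to 7969) that belong to both mt-Atp8 and mt-Atp6. The third, chrM:10147-10193, holds in capitals the 7 bases (10167 to 10173) shared by mt-Nd4l and mt-Nd4. Members of each overlapping pair are carried by 1 mRNA.
mt-Rnr2/mt-Tl1/mt-Nd1: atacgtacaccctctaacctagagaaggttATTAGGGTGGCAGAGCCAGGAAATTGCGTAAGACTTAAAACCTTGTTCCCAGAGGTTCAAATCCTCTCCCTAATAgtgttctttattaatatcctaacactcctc
mt-Atp8/mt-Atp6: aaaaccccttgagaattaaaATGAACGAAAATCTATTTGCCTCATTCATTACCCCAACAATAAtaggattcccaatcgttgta
mt-Nd4l/mt-Nd4: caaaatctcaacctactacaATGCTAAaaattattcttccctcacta

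A second set of sequences bears on how reads were shared out. Chromosome 1 of the nuclear genome carries a copy of part of the mitochondrial chromosome, at chr1:24611535-24616188 (GRCm38). It aligned to chrM positions 6390 to 11042 with 99.9% identity, with 2 differing bases and 1 gap over 4654 aligned positions. The gap, a base present only in the nuclear copy, lay within the arginine tRNA gene mt-Tr. The 2 differing bases fell in mt-Nd3 and mt-Co1. They are shown in capitals below, for chrM:9437-9485 with its nuclear match chr1:24613093-24613141 and for chrM:6390-6417 with chr1:24616161-24616188, the copies being read on the minus strand. Counted from 1 at the start of each mitochondrial gene, with the mitochondrial base first, they are T3C in the copy Gm28438 of mt-Nd3 and A1066T in the copy Gm29216 of mt-Co1.
mt-Nd3: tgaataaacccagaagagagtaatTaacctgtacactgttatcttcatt
Gm28438: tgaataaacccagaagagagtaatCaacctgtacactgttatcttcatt
mt-Co1: ggaAttgttttatccaactcatcccttg
Gm29216: ggaTttgttttatccaactcatcccttg

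Of the 37 genes, 15 had counts, namely the 13 mRNAs and both rRNAs, and all 15 entered the test. All 22 tRNA genes, 59 to 75 bases long, were listed at 0 in all 8 libraries. The same held for 810 of 810 other genes of that length and for 1422 of 1422 genes of 76 to 100 bases. The shortest gene with any count was 127 bases long, and the 22 tRNA genes were among 4773 shorter ones. A 0 for a mitochondrial tRNA therefore says nothing of its level in the tissue. Totals ran from 51406011 to 81525977 estimated counts per library, and 3 counts corresponded to between 0.0377 and 0.0589 CPM, the library-scaled count used below (counts divided by the upper-quartile effective library size, times 1e6).

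Mitochondrial RNA made up between 4.92% and 5.69% of all counts in a library, with counts given to nuclear copies left out. The 13 mRNAs took 2.99% ± 0.177 (SD, n = 4) in homecage mice and 2.96% ± 0.131 (SD, n = 4) in SOR mice. In homecage replicates 1 to 4 their share was 2.72%, 3.04%, 3.11% and 3.08%, and in SOR replicates 1 to 4 it was 3.07%, 2.91%, 2.81% and 3.08%. Values of the 2 groups overlapped, and the lowest was that of homecage replicate 1. Nuclear copies, described below, held a further 0.431% to 0.515% of counts. With them the mRNA share ran from 3.19% in homecage replicate 1 to 3.58% in SOR replicate 1, and the groups again overlapped.

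The rRNA share was 2.49% ± 0.20 (SD, n = 4) in homecage and 2.40% ± 0.113 (SD, n = 4) in SOR mice. It stood at 2.20%, 2.65%, 2.53% and 2.57% in homecage replicates 1 to 4 and at 2.37%, 2.26%, 2.44% and 2.52% in SOR replicates 1 to 4. The groups overlapped here too, again with homecage replicate 1 lowest. The depletion kit named in the methods, Ribo-Zero Gold, removes mitochondrial as well as cytosolic rRNA. The labels instead list polyA RNA as the molecule. If the kit was used, these are levels of what remained after depletion. The ratio of mitochondrial rRNA to mRNA counts ran from 0.772 to 0.874 over the 8 libraries, with 0.832 ± 0.0301 (SD, n = 4) in homecage and 0.810 ± 0.0460 (SD, n = 4) in SOR mice.

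**Figure D1:**
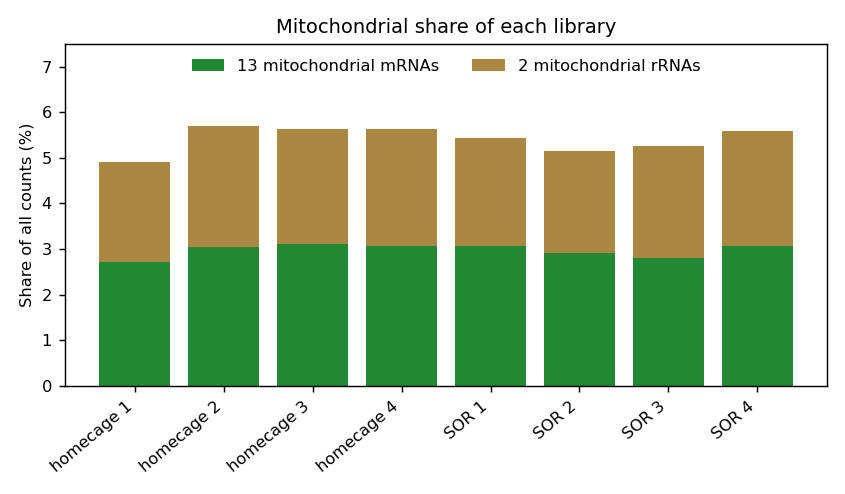
Share of all counts (%, y axis) taken by the 13 mitochondrial mRNAs and the 2 mitochondrial rRNAs, stacked, in each of the 8 libraries (x axis). Summed shares run from 4.92% to 5.69%, the lowest in homecage replicate 1, and the groups overlap. Counts given to nuclear copies are left out.

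7SL RNA, the RNA of the signal recognition particle, was an abundant non-mitochondrial part of these libraries, at 13.2% of counts in homecage replicate 1 and between 7.92% and 11.6% in the others. With 7SL RNA left out of the totals, the summed mitochondrial share was 5.67% in homecage replicate 1, still the lowest, and ran up to 6.35% in homecage replicate 4. All 6 markers of hippocampal neurons had counts, summing to 591 to 670 CPM over the 8 libraries. Choroid plexus markers varied most between libraries, with sums from 27.3 to 1102 CPM in homecage mice and from 44.0 to 4014 CPM after SOR, SOR replicate 1 being highest. Log2 fold changes of these were positive for 7 of 7, with a median of 1.18, and those of red blood cell markers for 5 of 5, with a median of 0.37. All 7 mature oligodendrocyte markers had negative log2 fold changes, their sums being 5308 to 5787 CPM in homecage mice against 4338 to 5697 CPM after SOR, and for 1 of the 7 the groups did not overlap, beside 6.95% of all genes. At an adjusted p under 0.05, 0 of the choroid plexus, red blood cell and oligodendrocyte markers passed, beside 0.309% of all genes. At an unadjusted p under 0.05 there were 0, 2 and 3 of them, beside 10.1% of all genes. Markers of hippocampal neurons, thalamus, astrocytes, microglia, endothelial cells and interneurons were mixed in direction. Of these, 2 of 5 microglia and 1 of 5 endothelial markers were lower after SOR at an unadjusted p under 0.05 (edgeR), beside 10.1% of all genes. For 1 endothelial marker the groups did not overlap, beside 6.95% of all genes. None of the listed markers was at 0 throughout. Their part in the mitochondrial values was not tested, and in bulk RNA fewer cells of a type and less RNA per cell cannot be told apart.

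The mitochondrial RNAs differed in level by nearly 2 orders of magnitude. On the scale of CPM per kb of gene length, averaged over the 8 libraries, mt-Rnr2, the 16S rRNA of the large ribosomal subunit, was highest at 14266 (range 12893 to 15501). Levels of both rRNAs are again those of what remained, if the libraries were depleted as the methods state. The highest mRNA was mt-Co1, the catalytic core of cytochrome c oxidase, at 9482 (8708 to 10153). It was followed by mt-Co2 at 4831 CPM per kb and then by mt-Co3 at 3057 and mt-Nd1 at 2918, whose ranges overlapped. Next came mt-Atp6 at 2439, and then the 12S rRNA mt-Rnr1 at 1951 beside mt-Cytb at 1949, a pair with overlapping ranges. The level of mt-Atp8 was 1315 CPM per kb. Then came mt-Nd4 at 719 and mt-Nd2 at 699, again overlapping, and mt-Nd5 at 303. The lowest were mt-Nd4l at 199, mt-Nd3 at 153 and mt-Nd6 at 150, of which neighbours overlapped. Among all genes of the table ranked by mean CPM, without regard to length, mt-Rnr2 stood at rank 3 and mt-Co1 at rank 5.

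Several RNAs cut from one precursor or carried on one mRNA had unequal levels per length. The level of mt-Rnr2 was between 7.07 and 7.94 times that of mt-Rnr1 in the 8 libraries. Their genes are separated by a single tRNA gene, and both rRNAs are targets of the depletion kit named in the methods. If that kit was used, this ratio is of what remained, and the part of depletion in it was not tested. On their shared mRNA, mt-Atp6 was 1.76 to 2.03 times as high as mt-Atp8. On the other shared mRNA, mt-Nd4 was 3.42 to 4.03 times as high as mt-Nd4l. In both pairs the lower member was the shorter gene, with 204 bases for mt-Atp8 and 297 for mt-Nd4l, and the part of gene length and of the overlap in these ratios was not tested.

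**Figure D2:**
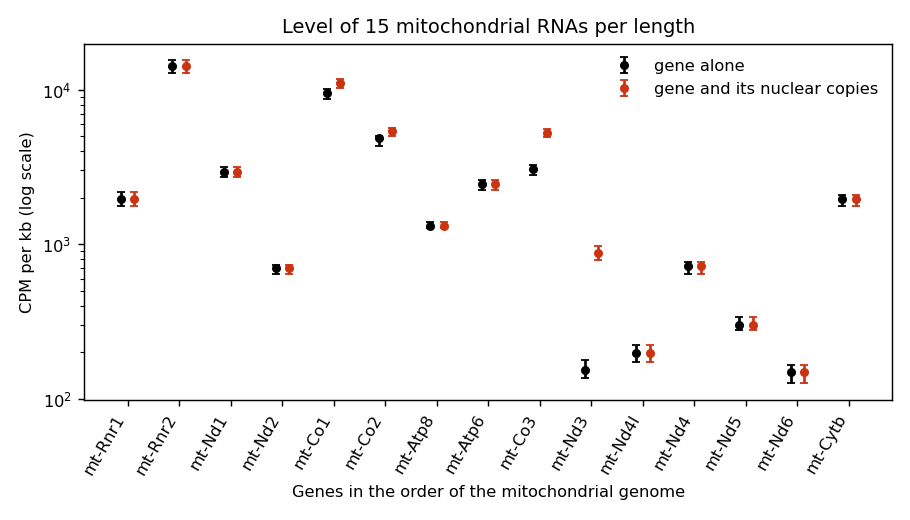
Mean level of the 15 mitochondrial RNAs with counts, in CPM per kb on a log scale (y axis), in the order of the genome (x axis). Points are means of 8 libraries and bars run from the lowest to the highest library, in black for the gene alone and in red with the counts of its nuclear copies added. mt-Nd3 moves from 153 to 876 and mt-Co3 from 3057 to 5259.

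Nuclear copies took a large part of the counts of some members. A search of annotated transcripts against chrM, at 90% identity or more over at least 80% of the transcript, found 15 copies in the table, 7 of them pseudogenes in the chromosome 1 block. Gm28438 (chr1:24612775-24613119), which matches mt-Nd3 over 345 bases but for the 1 base shown above, held most of the counts of that pair. It took 81.9%, 82.4%, 82.7% and 80.4% of them in homecage replicates 1 to 4 and 82.05%, 83.6%, 82.8% and 84.6% in SOR replicates 1 to 4. The mitochondrial gene thus kept the smaller part in every library.

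Gm28437 (chr1:24613189-24613971), identical to 783 bases of mt-Co3, took 44.3%, 45.4%, 39.6% and 42.3% of the pair's counts in homecage replicates 1 to 4. In SOR replicates 1 to 4 it took 44.1%, 37.5%, 37.7% and 43.8%. Gm29216 (chr1:24615706-24616197), which matches the last 483 bases of mt-Co1, took 13.1% to 14.8% of its pair. Gm28661 (chr1:24614885-24615565), identical to 681 bases of mt-Co2, took between 6.60%, in SOR replicate 2, and 15.4%, in SOR replicate 1. For all 4 pairs the groups overlapped in this share.

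The other 3 copies of the block, though identical to their mitochondrial counterparts, were nearly empty. Gm28439 (876 bases, mt-Nd4) and Gm10222 (294 bases, mt-Nd4l) were listed at 0 in all 8 libraries. Gm10925 (678 bases, mt-Atp6) was at 0 in all but homecage replicate 4, where it held 220 counts. The 8 copies elsewhere in the genome held at most 95.4 counts in any library. Reads from identical stretches cannot be assigned from their sequence, and whether the block itself is transcribed was not tested, so levels of mt-Nd3, mt-Co3, mt-Co1 and mt-Co2 are uncertain by the share above.

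**Figure D3:**
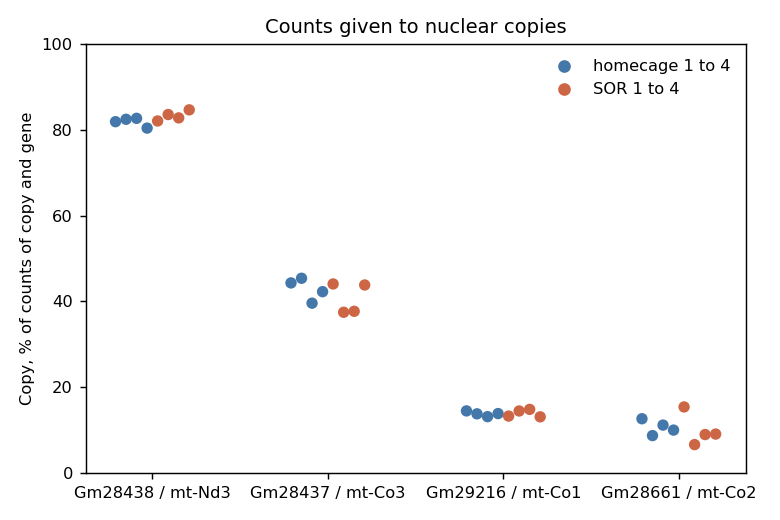
Counts assigned to a nuclear copy as a percentage of those of the copy and its mitochondrial gene together (y axis), for 4 pairs (x axis). Each point is a library, with homecage replicates 1 to 4 in blue followed by SOR replicates 1 to 4 in red. The share lies between 80.4% and 84.6% for mt-Nd3 and between 37.5% and 45.4% for mt-Co3.

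Adding the copies' counts changed the order of levels. With its copy, mt-Nd3 was on average 5.76 times as high, at 876 CPM per kb, which placed it 10th of the 15 and above mt-Nd4. That of mt-Co3 was 5259 CPM per kb, next to mt-Co2 at 5387, and mt-Co1 stood at 11004. The coefficient of variation over the 8 libraries was 6.34% for mt-Nd3 with its copy against 10.6% without, 4.15% against 5.09% for mt-Co3, 4.82% against 5.42% for mt-Co2 and 4.82% against 5.43% for mt-Co1. For these 4 genes, libraries were thus closer to each other once the copies were counted in.

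SOR and homecage mice did not differ detectably in any of the 15 mitochondrial RNAs. With edgeR's quasi-likelihood test, 0 of the 15 were called, a call being a fold change above 1.4 together with an adjusted p under 0.05, where 0.173% of the 22018 genes tested were called. At an adjusted p under 0.05 alone the count was also 0, against 0.309% of all genes. At an unadjusted p under 0.05 it was 0 of 15, against 10.1% of all genes. For 0 of the 15 did the values of the groups fail to overlap, against 6.95% of all genes. Log2 fold changes (SOR minus homecage) were positive for 3 and negative for 12 (6 were positive with TMM and 7 with RLE scaling), with a median of -0.04 for the 15 and -0.02 for the 13 mRNAs, beside -0.02 for all genes tested. They ran from -0.12 for mt-Nd3 to 0.02 for mt-Nd4. The 95% confidence intervals reached at most a 19.2% decrease (mt-Nd3) and an 11.4% increase (mt-Nd4). For the counts given to each gene, a change by a factor of 1.4 thus lay outside all 15. Counts given to nuclear copies, which were most of the pair's counts for mt-Nd3, are not in these intervals.

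**Figure D4:**
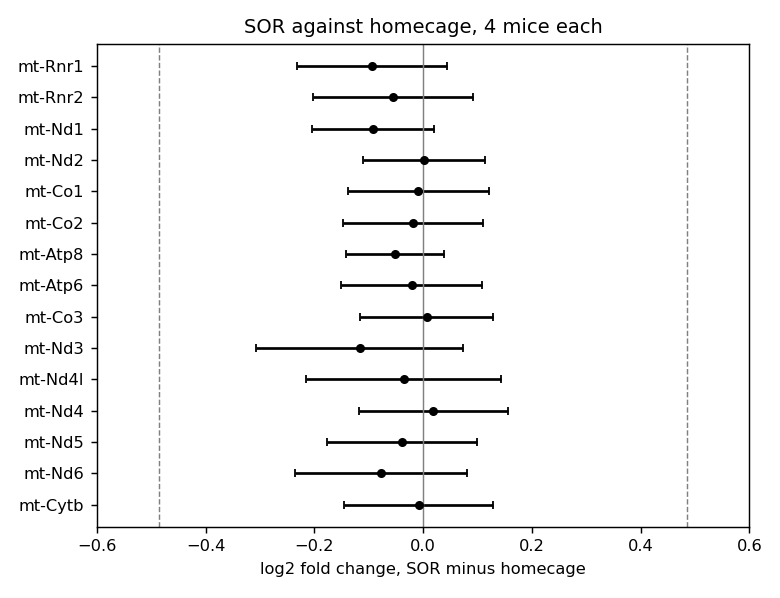
Log2 fold change of SOR against homecage mice (x axis) for the 15 mitochondrial RNAs with counts (y axis, in genome order), from edgeR. Points are estimates and bars 95% confidence intervals from 4 mice per group, and dashed lines mark a fold change of 1.4. All intervals include 0 and lie within the dashed lines. Counts given to nuclear copies are left out.

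Complex I, NADH dehydrogenase, through which most electrons enter the chain, has 7 mitochondrially encoded subunits. Lowest in p was mt-Nd1, a membrane-arm subunit near the quinone site. It stood at 2697, 2961, 2858 and 3010 CPM in homecage replicates 1 to 4 and at 2868, 2642, 2594 and 2711 CPM in SOR replicates 1 to 4. The 4 lowest values were those of SOR replicates 2 to 4 and homecage replicate 1, and the groups overlapped. The log2 fold change was -0.09 (SE 0.0505), with an adjusted p of 0.586 by edgeR.

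The gene mt-Nd3 is the one most affected by its nuclear copy. Alone, it stood at 52.7, 55.2, 52.0 and 61.7 CPM in homecage and at 60.7, 48.2, 47.4 and 47.9 CPM in SOR replicates 1 to 4. SOR replicates 2 to 4 lay below all homecage mice and SOR replicate 1 above 3 of them. The log2 fold change was -0.12 (SE 0.0862, edgeR adjusted p 0.703). Without SOR replicate 1 it was -0.21, with an adjusted p of 0.278. Summed with its copy, an alternative chosen after seeing the data, mt-Nd3 had means of 305 ± 11.6 (SD, n = 4) and 305 ± 27.1 (SD, n = 4) CPM in homecage and SOR mice. The log2 fold change was then -0.0012 (SE 0.0613).

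The gene mt-Nd6 is the only mRNA gene on the opposite strand, and it overlaps the end of mt-Nd5 by 14 bases in antisense. Whether counting used strand is not given in the sources used here. It stood at 76.1, 79.6, 78.4 and 85.9 CPM in homecage replicates 1 to 4 and at 65.4, 84.5, 76.2 and 77.3 CPM in SOR replicates 1 to 4. SOR replicate 1 was the lowest of the 8 and the others mixed. Its log2 fold change was -0.08 (SE 0.0714, edgeR adjusted p 0.773). Relative to the 12 mRNAs of the other strand, mt-Nd6 held 0.268% ± 0.00953 (SD, n = 4) in homecage and 0.257% ± 0.0292 (SD, n = 4) in SOR mice.

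For the other complex I subunits, mt-Nd2, mt-Nd4, mt-Nd4l and mt-Nd5, log2 fold changes lay between -0.04 (mt-Nd5) and 0.02 (mt-Nd4), and all had overlapping groups. For mt-Nd4 the mean was 984 ± 70.0 CPM in homecage mice and 997 ± 60.1 CPM after SOR (SD, n = 4 each). For mt-Nd5 the means were 559 ± 22.9 and 544 ± 48.6 CPM (SD, n = 4 each).

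Complex III has a single mitochondrially encoded subunit, cytochrome b (mt-Cytb), which passes electrons between quinone and the cytochromes. It stood at 2018, 2257, 2274 and 2394 CPM in homecage replicates 1 to 4 and at 2098, 2270, 2136 and 2391 CPM in SOR replicates 1 to 4. The lowest and the highest values were both homecage. Between the groups the log2 fold change was -0.01 (SE 0.0619), and the edgeR adjusted p was 0.983.

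Complex IV, cytochrome c oxidase, which hands electrons to oxygen, has mt-Co1, mt-Co2 and mt-Co3. For mt-Co1, homecage replicates 1 to 4 had 13454, 14974, 14925 and 15426 CPM and SOR replicates 1 to 4 had 14867, 14104, 13762 and 15687 CPM. The lowest library was homecage replicate 1 and the highest SOR replicate 4. For mt-Co2, which carries the copper site that accepts electrons from cytochrome c, the values were 2976, 3443, 3433 and 3449 CPM in homecage and 3200, 3366, 3135 and 3433 CPM in SOR replicates 1 to 4. Homecage replicate 1 stood below the other 7 libraries. Log2 fold changes were -0.01 (SE 0.0587) for mt-Co1 and -0.02 (SE 0.0580) for mt-Co2, with edgeR adjusted p of 0.979 and 0.952. For mt-Co3 the log2 fold change was 0.01 alone and -0.04 when summed with its copy.

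Of the ATP synthase, the enzyme that makes ATP from the proton gradient, 2 subunits are encoded here. The small subunit mt-Atp8 stood at 258, 283, 265 and 285 CPM in homecage replicates 1 to 4 and at 264, 265, 263 and 262 CPM in SOR replicates 1 to 4. SOR mice lay within the homecage range and close together, with an SD of 1.41 CPM against 13.2 CPM in homecage mice (n = 4 each). Its log2 fold change was -0.05 (SE 0.0409, edgeR adjusted p 0.735). The proton channel subunit mt-Atp6 had means of 1673 ± 106 (SD, n = 4) and 1649 ± 95.9 (SD, n = 4) CPM in homecage and SOR mice.

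Of the rRNAs, mt-Rnr1 stood at 1700, 2080, 1885 and 2029 CPM in homecage replicates 1 to 4 and at 1746, 1795, 1870 and 1797 CPM in SOR replicates 1 to 4. All 4 SOR values lay above homecage replicate 1 and below the other homecage mice. The log2 fold change was -0.09 (SE 0.0623, edgeR adjusted p 0.666). For mt-Rnr2 the values were 20396, 24523, 22889 and 24218 CPM in homecage and 21194, 21029, 22648 and 23648 CPM in SOR replicates 1 to 4. SOR mice again lay within the homecage range, with a log2 fold change of -0.06 (SE 0.0664, edgeR adjusted p 0.836).

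Some libraries stood high or low in many of the genes at once. In homecage replicate 1, 10 of the 15 RNAs had their lowest value of the 8 libraries and 0 of 15 lay above the gene's mean. In homecage replicate 4, 9 of the 15 had their highest value and all 15 lay above the mean. The median deviation from the gene mean was -0.12 in homecage replicate 1 and 0.10 in homecage replicate 4 on the log2 scale. These 2 libraries, at opposite ends, belong to the same group. In SOR replicate 1 the genes did not move together, with deviations from -0.25 (mt-Nd6) to 0.20 (mt-Nd3). Directions were also mixed in SOR replicates 2 (-0.14 to 0.16) and 4 (-0.14 to 0.10), each with 8 of the 15 above the mean.

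**Figure D5:**
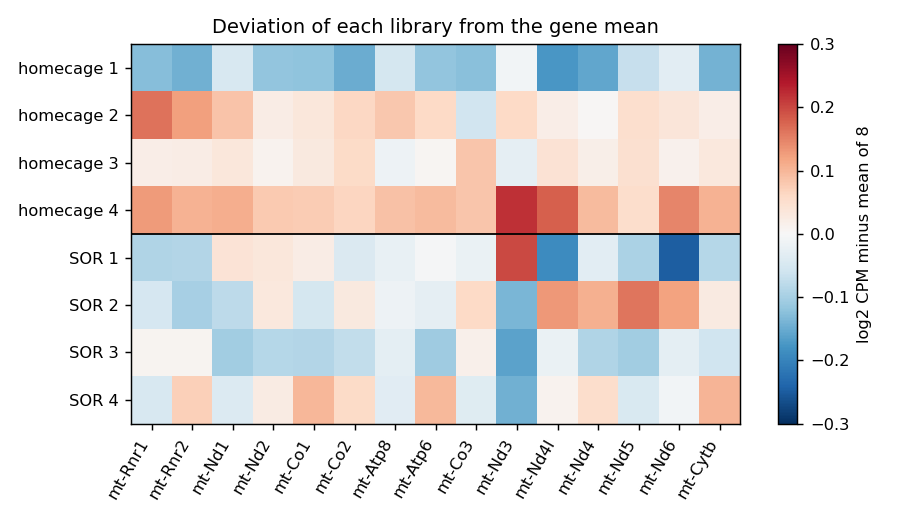
Deviation of log2 CPM from the gene's mean over 8 libraries (colour) for the 15 mitochondrial RNAs with counts (x axis, genome order) in each library (y axis, homecage above the line, SOR below). Homecage replicate 1 lies below the mean for all 15 and homecage replicate 4 above it for all 15.

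Within the mitochondrial mRNA pool, the groups overlapped in all 4 complexes. Counts given to nuclear copies were left out of the shares of complexes. Complex IV mRNAs made up 68.2% ± 0.296 (SD, n = 4) of mitochondrial mRNA counts in homecage and 68.6% ± 0.469 (SD, n = 4) in SOR mice. Complex I mRNAs made up 17.9% ± 0.223 and 17.4% ± 0.529 (SD, n = 4 each). For complex III the shares were 7.46% ± 0.103 and 7.52% ± 0.309, and for the ATP synthase 6.5% ± 0.111 and 6.46% ± 0.0617 (SD, n = 4 each).

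By gene, mt-Co1 held 49.1% ± 0.0878 (SD, n = 4) of the pool in homecage and 49.3% ± 1.13 (SD, n = 4) in SOR mice, followed by mt-Co2 at 11.1% in both. With copies counted in, mt-Co3 came second at 12.1% in homecage and 11.9% in SOR mice, above mt-Co2 at 10.7% in both. Of the 13 mRNAs, 0 had shares that did not overlap between the groups. The count was also 0 with any single mouse other than SOR replicate 1 left out. Without SOR replicate 1 there were 2, and the share over all genes in those mice was not computed. For mt-Nd1 the homecage range was then 9.39% to 9.85% and the SOR range 8.72% to 9.21%, and for mt-Nd3 they were 0.171% to 0.196% and 0.154% to 0.168%. With copies counted in, shares of mt-Nd3 in homecage mice ran from 0.856% to 0.907% and those of SOR replicates 2 to 4 were 0.868%, 0.845% and 0.871%, which overlap. For mt-Nd1 they ran from 8.16% to 8.41% in homecage mice and were 7.83%, 7.97% and 7.56% in SOR replicates 2 to 4, which do not overlap.

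Nuclear genes that transcribe, replicate, process and modify mitochondrial RNA and DNA, with 8 regulators of nuclear genes for mitochondria, were read as a list of 63, all of them tested. At an adjusted p under 0.05, 0 of the 63 passed in edgeR, beside 0.309% of all genes, and 7 had an unadjusted p under 0.05 (5 higher and 2 lower), beside 10.1% of all genes, a share near that of the list. With DESeq2, which gave an adjusted p to 17744 genes and called 2.45% of them at 0.05, 3 of the 63 passed, namely Fastkd5 at an adjusted p of 0.0236, Primpol at 0.0286 and Ptcd1 at 0.0449. The median log2 fold change of the 63 was -0.02, as for all genes. Among the 63, groups did not overlap for 3 genes with SOR above and 2 with SOR below, beside 6.95% of all genes. The 5 genes described next were those of lowest p, so non-overlap among them is no separate evidence.

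Lowest in p was Primpol, a primase-polymerase that restarts stalled replication forks in nucleus and mitochondria. It stood at 4.03, 3.77, 3.44 and 4.33 CPM in homecage and at 2.80, 2.52, 3.02 and 2.88 CPM in SOR replicates 1 to 4, with all SOR mice below all homecage mice. Its log2 fold change was -0.47 (SE 0.115, edgeR adjusted p 0.166).

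Fastkd5, needed to process mitochondrial precursor RNA at junctions that lack a tRNA, stood at 10.6, 10.6, 10.9 and 10.9 CPM in homecage and at 12.5, 12.8, 11.96 and 13.02 CPM in SOR replicates 1 to 4. All SOR mice lay above all homecage mice, with a log2 fold change of 0.22 (SE 0.0662, edgeR adjusted p 0.272). Ptcd1, a pentatricopeptide repeat protein that binds mitochondrial leucine tRNAs, stood at 21.9, 23.3, 24.7 and 23.9 CPM in homecage and at 28.03, 28.8, 24.2 and 29.1 CPM in SOR replicates 1 to 4. The groups overlapped through SOR replicate 3, and the log2 fold change was 0.23 (SE 0.0700, edgeR adjusted p 0.277).

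Top1mt, the mitochondrial type I topoisomerase, stood at 16.6, 16.9, 16.2 and 17.3 CPM in homecage and at 14.1, 14.7, 13.6 and 15.6 CPM in SOR replicates 1 to 4. All SOR mice lay below all homecage mice, and the log2 fold change was -0.21 (SE 0.0661, edgeR adjusted p 0.321). Gabpa, a transcription factor of many nuclear respiratory genes, stood at 44.6, 44.2, 45.6 and 43.8 CPM in homecage and at 53.3, 48.3, 47.1 and 46.0 CPM in SOR replicates 1 to 4. All SOR mice lay above all homecage mice, and the log2 fold change was 0.13 (SE 0.0512, edgeR adjusted p 0.439).

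Nuclear genes for subunits of the respiratory chain and the ATP synthase were read as a list of 75, all tested. The list includes the 4 subunits of complex II, a complex with no mitochondrially encoded member. Nduf genes were taken by symbol, which brought in Ndufa4l2, whose place as a subunit was not checked. Its log2 fold change of 0.26 was the highest of the 75. At an adjusted p under 0.05, 0 of the 75 passed, beside 0.309% of all genes, and 2 had an unadjusted p under 0.05, beside 10.1% of all genes. Their log2 fold changes were positive for 21 and negative for 54, with a median of -0.03, where all genes had 9650 positive and 12368 negative and a median of -0.02. Summed, they made up 0.698% to 0.794% of counts, the highest share being that of SOR replicate 1.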

How the data were processed

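Dorsal hippocampal RNA of 8 mice was sequenced by the authors as 150-bp pairs after Ribo-Zero Gold depletion per the methods, although the labels list polyA RNA as the molecule. Reads were aligned with STAR under bcbio-nextgen to mm10. The deposited values are estimated counts per gene from tximport, of which 52.6% of those above 0 were not whole. The methods name featureCounts, and the quantifier and strand setting behind the deposited table are not given in the sources used here.

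Counts were rounded and tested with edgeR 4.0.16 (R 4.3.3), with filterByExpr, upper-quartile scaling, the quasi-likelihood F test and Benjamini-Hochberg adjustment over 22018 genes. The study also used RUVs, whose number of factors is not given, so 1 to 3 factors were tried as alternatives. CPM are counts divided by the upper-quartile effective library size, times 1e6, and shares use unscaled totals. Lengths are those of GENCODE M21, which gave a record for 54495 genes. Copies were found with blastn (BLAST+ 2.17.0). Alternatives were TMM, RLE, library-size and mitochondrial scaling, no filter, DESeq2 1.42.0, limma-voom 3.58.1, each mouse left out, and copies summed. The fit was tested on simulated data. Members and lists were chosen with earlier results of these data known. Per-mouse values were given by a fixed rule for both rRNAs, the lowest p in each complex, the highest levels and mt-Nd6, and for the 5 upkeep genes of lowest p. mt-Nd3 and nuclear copies were added after their values were seen. Counting error was not separated from the spread between mice.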

Additional observations from a re-analysis of the deposited data

Results flagged for a closer look

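Within groups of 4 mice, 6 values stood apart from the other 3 of their group by Dixon's criterion, among 104 groups examined, where chance flags about 1 in 20 groups. In SOR replicate 3, mt-Nd2 stood at 683 CPM, below the 737 to 742 CPM of the remaining SOR mice. In homecage replicate 1, mt-Co2 stood at 2976 CPM against 3433 to 3449 CPM in the others, and mt-Nd5 at 525 CPM against 570 to 572 CPM. For mt-Nd3, SOR replicate 1 stood at 60.7 CPM, above the 47.4 to 48.2 CPM of the remaining SOR mice. Complex IV took 68.6% of mitochondrial mRNA in homecage replicate 3, against 68.0% to 68.1% in the other homecage mice. The share of mt-Nd4 was 3.62% in SOR replicate 2, against 3.25% to 3.30% in the other SOR mice.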

How the results depend on the processing

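The count of mitochondrial genes at an adjusted p under 0.05 was 0 in all alternatives run. With the replicate block it was 0 too. Whether replicate numbers pair the mice is not given in the sources used here. Correlations of deviations from group means, which cannot settle this, ran from -0.0837 to 0.073 for same-numbered mice. For mice of different numbers they ran from -0.2 to 0.194. The block changed no call. For the 63 nuclear upkeep genes the count was 3 with DESeq2 and 0 with edgeR. The count of mRNAs with non-overlapping shares ranged from 0 to 2 when 1 mouse was left out, 2 being without SOR replicate 1. The share over all genes in those mice was not computed, so the 2 cannot be set against a background.

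Some fold changes near 0 turned sign under other scalings, tools, RUVs factors or with copies summed, with no adjusted p under 0.05. Log2 fold changes became positive for mt-Co1 (0.012 with TMM, 0.013 with RLE and DESeq2, 0.0077 scaled to mitochondrial mRNA), mt-Cytb (0.012, 0.013 and 0.0098), mt-Co2 (0.0020 with TMM, 0.0032 with RLE and DESeq2) and mt-Atp6 (0.00077 with RLE, 0.00076 with DESeq2). For mt-Nd2 they became negative (-0.00047 with limma-voom, -0.0027 with 2 and -0.00021 with 3 RUVs factors), and for mt-Co3 with copies (-0.043). With 1 mouse left out at a time, ranges that crossed 0 were -0.061 to 0.010 for mt-Atp6, -0.048 to 0.019 for mt-Co1, -0.066 to 0.0036 for mt-Co2, -0.031 to 0.036 for mt-Co3, -0.052 to 0.025 for mt-Cytb, -0.034 to 0.030 for mt-Nd2, -0.025 to 0.053 for mt-Nd4 and -0.093 to 0.019 for mt-Nd4l. The other 7 stayed negative. With 4 mice per group, differences smaller than the intervals given for each gene were not detectable.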
